A study of Mus musculus with 3 samples.

Results

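The 6 genes followed here encode neurotrophins and the receptors that bind or sort them: the ligand genes Bdnf and Ntf3, the tyrosine kinase receptor genes Ntrk2 and Ntrk3, the p75 receptor gene Ngfr and the sorting receptor gene Sort1. They were found by matching the accession of every gene probe to RefSeq symbols, which gave 10 probes of the 41174 gene probes on the array. Sort1 had 4 probes, Bdnf had 2, and the other genes had 1 each. All 10 were flagged reliable by the authors on all 3 arrays, so all 10 were tested, among 27530 tested probes.

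Neurotrophins are secreted as precursors, and the cleaved and uncleaved forms bind different receptors. Mature BDNF acts through TrkB, the product of Ntrk2, and NT-3, the product of Ntf3, acts mainly through TrkC, the product of Ntrk3. Both kinase receptors signal through the Ras-ERK, PI3K and phospholipase C gamma arms, and in the adult cortex BDNF is best known for its part in synaptic plasticity. The p75 receptor, with sortilin from Sort1 as a partner, binds precursor forms, and sortilin also steers the BDNF precursor to the regulated secretory pathway.

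The RNA came from cortex of mice 16 weeks old. Gtf2i(+/Δex2) animals are heterozygous for an allele whose name denotes loss of exon 2, and WT (+/+) animals have intact copies. Gtf2i encodes the transcription factor TFII-I. Both genotypes share a mixed background of 98.4% C57BL/6J with 1.6% 129Sv/CD1, and RNA of 3 to 5 mice was combined for each hybridisation. On each of the 3 arrays the mutant pool stood in one colour and the wild-type pool in the other, with Cy5 carrying mutant RNA on replicate 2 and Cy3 carrying it otherwise. Whether each array had pools of its own is not stated, and the p-values cover the spread of these arrays alone, which may be technical. The precision is limited by the number of arrays.

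Signals are the authors' normalized intensities, and ratios are log2 of Gtf2i(+/Δex2) over WT, a direction that rests on the deposited readme, the order of genotypes in the sample titles and control spots that change sign with the labelled dye. It is likely rather than stated per column, and turned round it would swap every sign and every higher and lower call. In that direction the 2 Gtf2i probes read -0.47 ± 0.04 and -0.32 ± 0.05 (log2 ratio, SD, n = 3 arrays; limma adjusted p = 0.0026 and 0.00505). Their positions relative to exon 2 are unknown here, so they do not check the genotype. Reliable gene spots made up 64.4% to 69.7% of an array. Median gene-spot signals were 204.1 to 204.4 in the mutant channel and 204.9 to 206.1 in the wild-type channel, and negative controls had medians of 75.5 to 81.0 and 72.3 to 81.4. Ratios correlated across the tested probes with Pearson r of 0.625 to 0.822 between arrays, a description across probes that are not independent. Of 6 excitatory neuron markers on the array, 4 were called present in both genotypes on all 3 arrays. So were 7 of 8 striatal, 5 of 8 thalamic, 2 of 5 hippocampal and 3 of 4 choroid plexus markers. These calls therefore do not single out cortex, and the share of other regions in the RNA was not tested.

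The members differed in direction, and the changes were small. Of the 10 probes, 2 rose and 1 fell in Gtf2i(+/Δex2) cortex in the limma fit at an adjusted p under 0.05, so 30% were called. Over all tested probes 33.9% were called, 15% higher and 18.9% lower, and the members' share lay near that background. Their median log2 ratio was -0.05, against -0.0016 over all tested probes, and their median absolute log2 ratio was 0.14, against 0.11. The probes that rose were A_52_P384100 of Bdnf and A_52_P590396 of Sort1, and the probe that fell was A_52_P55706 of Ntrk3. Ratios kept one sign on all 3 arrays at 6 of the 10 probes, against 65.1% of tested probes. Without replicate 1, 0 of the 10 were called by limma and 4 had an unadjusted p under 0.05, against 6 with all arrays. In that fit 8.75% of all tested probes were called, against 33.9% with all arrays, so calls were lost across the whole array. Under the authors' rule of a B statistic above 0, the log odds of a change, 1 was called, A_52_P384100 of Bdnf, where 9.67% of all tested probes passed that rule.

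**Figure D1:**
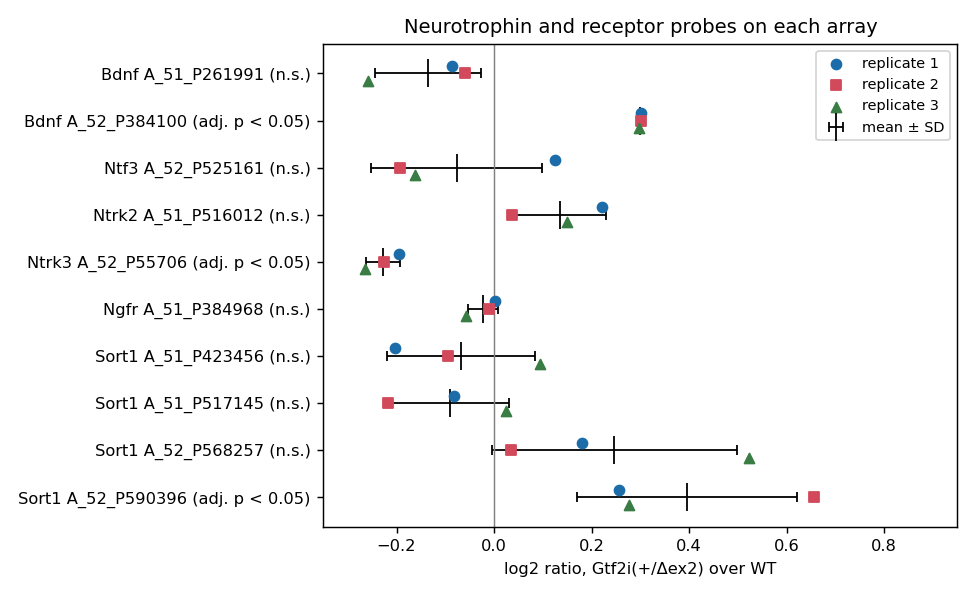
Log2 ratio of Gtf2i(+/Δex2) over WT (horizontal axis) for each of the 10 probes (rows); symbols are the 3 arrays, the vertical tick and bar are the mean ± SD, and each row says whether the limma adjusted p was under 0.05. The 3 arrays lie on top of each other for Bdnf A_52_P384100, with means of 0.30 for that probe and -0.14 for the other Bdnf probe.

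Bdnf, the ligand of TrkB, is transcribed from several alternative starts that are all spliced to one coding exon. RefSeq gives 7 promoter windows for it on build GRCm38.p6 and 2 for Ntf3, with 1 each for Ngfr and Ntrk2. Each window runs from 250 bases before to 50 bases after a start. Those windows that hold either of 2 motifs searched on both strands are shown for the ligand genes. CACGTG is an E-box, a kind of element that TFII-I and its partner USF have been reported to bind, and TGACG is the core of the cyclic AMP response element bound by CREB. Capitals mark the match, and the Bdnf window holds TGACG on the opposite strand, where it reads CGTCA.
Bdnf, chr2:109692186-109692485, plus strand: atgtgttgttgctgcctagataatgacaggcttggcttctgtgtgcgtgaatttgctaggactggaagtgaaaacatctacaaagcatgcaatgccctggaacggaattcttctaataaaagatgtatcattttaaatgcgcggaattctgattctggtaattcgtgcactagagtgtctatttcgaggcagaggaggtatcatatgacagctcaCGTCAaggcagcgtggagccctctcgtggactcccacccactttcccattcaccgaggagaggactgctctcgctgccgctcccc
Ntf3, chr6:126166695-126166994, minus strand: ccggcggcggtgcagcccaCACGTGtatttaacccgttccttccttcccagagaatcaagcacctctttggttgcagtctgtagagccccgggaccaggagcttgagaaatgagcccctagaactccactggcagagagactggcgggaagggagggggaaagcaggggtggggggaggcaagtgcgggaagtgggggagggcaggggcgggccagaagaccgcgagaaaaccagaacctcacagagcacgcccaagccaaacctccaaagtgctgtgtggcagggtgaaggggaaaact
The match in Bdnf begins 35 bases before that start, and the match in Ntf3 begins 231 bases before its start. Of all 32851 mouse promoter windows of this length, 7.15% hold CACGTG and 20.8% hold TGACG, while 1 of the 11 windows of Bdnf, Ntf3, Ngfr and Ntrk2 holds each. Windows of Ntrk3 and Sort1 were not searched. The full palindrome TGACGTCA, which contains TGACG, is in 1.79% of all windows and in 0 of these 11. These are matches of letters and were not tested as binding sites.

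The Bdnf probes disagreed. Probe A_52_P384100 had signals of 330.2, 324.1 and 286.5 in Gtf2i(+/Δex2) cortex on replicates 1 to 3, against 268.2, 263.2 and 233.0 in WT cortex. Every mutant value lay above every wild-type value. Its log2 ratios were 0.30, 0.30 and 0.30, with a mean of 0.30 ± 0.0014 (SD, n = 3), which put the mutant signal at 123% of the wild-type one (limma adjusted p = 0.00469). The spread over arrays was far below the median SD of 0.0735 over all tested probes, and limma's moderated standard error was 0.0359. The probe lay in signal quartile 2, counted from the dimmest, where 30.4% of probes were called. Its mutant signals were called present on 3 arrays and its wild-type signals on 2. The wild-type signal of 233.0 on replicate 3 was in the authors' marginal class.

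Probe A_51_P261991 of Bdnf read the other way without passing the test. Its signals were 535.2, 599.1 and 465.0 in Gtf2i(+/Δex2) cortex, against 568.4, 624.4 and 556.4 in WT cortex, and the groups overlapped. Its log2 ratios were -0.09, -0.06 and -0.26, with a mean of -0.14 ± 0.11 (SD, n = 3; limma adjusted p = 0.103). Both probes carry the same RefSeq accession, NM_007540, and where they lie in the transcript is unknown here. In bulk tissue, fewer cells of a type and less RNA per cell cannot be told apart, for Bdnf and for every gene below.

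The gap between the Bdnf probes was tested within arrays. A_52_P384100 read above A_51_P261991 by 0.39, 0.36 and 0.56 on replicates 1 to 3, a mean difference of 0.43 ± 0.11 in log2 ratio (SD, n = 3; limma adjusted p = 0.00547 over all 4459 pairs of tested probes that share a gene). The gap passed in all 13 alternatives, with values from 0.37 to 0.57. Disagreement of this kind was common on the array: 37.1% of those pairs were called, and 11.8% had a gap at least as wide as that of Bdnf. Without replicate 1 the rise of A_52_P384100 itself read 0.30 and no longer passed (limma adjusted p = 0.0535, in a range of 9.46e-05 to 0.0535 over 13 alternatives). No single direction could therefore be given for Bdnf as a gene.

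**Figure D2:**
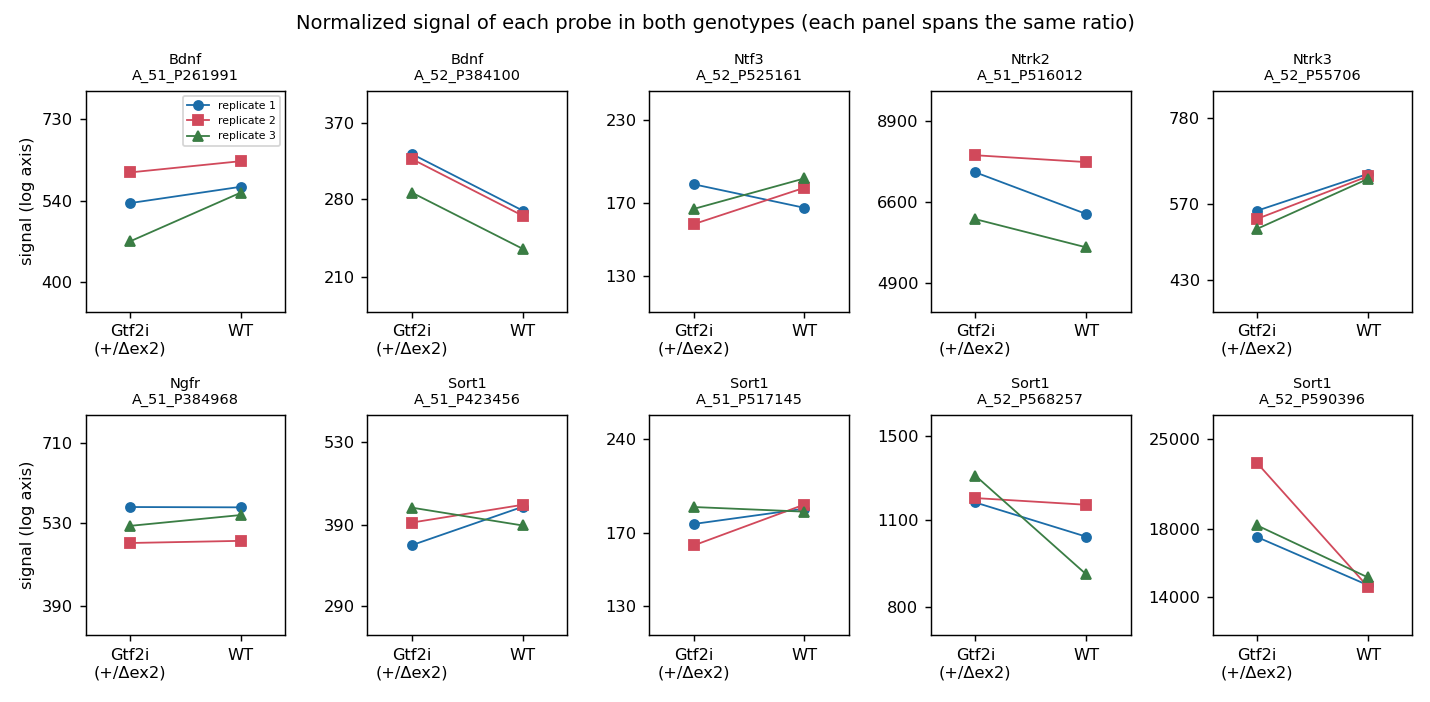
Normalized signal (vertical log axis, the same ratio from bottom to top in each panel) in Gtf2i(+/Δex2) cortex on the left and WT cortex on the right, with a line for each of the 3 arrays. Lines of Bdnf A_52_P384100 and Sort1 A_52_P590396 descend to WT on all 3 arrays, those of Ntrk3 ascend, and those of Ngfr are nearly flat.

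Ntf3, which encodes NT-3, was dim. Its probe A_52_P525161 had signals of 181.8, 157.0 and 166.0 in Gtf2i(+/Δex2) cortex, against 166.7, 179.5 and 185.7 in WT cortex, all 6 of them in the authors' marginal class, in the dimmest quartile of signals, where 14.1% of probes were called. The groups overlapped, and replicate 1 read above 0 where the other arrays read below it. The mean log2 ratio was -0.08 ± 0.18 (SD, n = 3; limma adjusted p = 0.442), with a 95% interval of -0.26 to 0.10. Leaving out 1 array moved it between -0.18 and -0.02. The interval gives the range of ratios compatible with these arrays, and no limit of detection was computed.

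Ntrk2, which encodes the BDNF receptor TrkB in full-length and truncated forms, did not pass the test. Probe A_51_P516012 had signals of 7362, 7838 and 6198 in Gtf2i(+/Δex2) cortex, against 6317, 7643 and 5588 in WT cortex. Signals of the genotypes overlapped across arrays, a comparison that leaves out the pairing within each array. Within arrays the mutant read higher each time, by log2 ratios of 0.22, 0.04 and 0.15. The mean was 0.14 ± 0.09 (SD, n = 3; limma adjusted p = 0.0849). Only this 1 probe matched Ntrk2, and which receptor form it reads is unknown here. Truncated TrkB is abundant in astrocytes. Of 9 astrocyte markers measured 4 fell and 2 rose. Their summed signals on replicates 1 to 3 were 39500, 44603 and 39332 in the mutant, against 43932, 47721 and 42999 in the wild type. The sum was thus lower in the mutant on each array. The part of astrocyte content in the Ntrk2 ratio was not tested.

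Ntrk3, which encodes the NT-3 receptor TrkC, fell. Probe A_52_P55706 had signals of 555.4, 538.9 and 519.5 in Gtf2i(+/Δex2) cortex, against 635.9, 630.1 and 624.2 in WT cortex, with no overlap. Its log2 ratios were -0.20, -0.23 and -0.26, with a mean of -0.23 ± 0.03 (SD, n = 3; limma adjusted p = 0.0102), and the mutant signal stood at 85.3% of the wild-type one. In signal quartile 3, where the probe lay, 40.8% of probes were called. Without replicate 1 the fall read -0.25 and no longer passed (limma adjusted p = 0.0806, in a range of 0.000462 to 0.0806 over 13 alternatives). Of 6 excitatory neuron markers 3 fell and 0 rose, and their probes averaged log2 ratios of -0.15 (replicate 1), -0.27 (replicate 2) and -0.21 (replicate 3). Their summed signals on replicates 1 to 3 were 64440, 70243 and 89449 in the mutant, against 61153, 100385 and 85848 in the wild type. The sum was thus higher in the mutant on replicates 1 and 3 and lower on replicate 2. Most of it came from the Nrgn probe, at 44967, 45919 and 57213 in the mutant, against 35797, 66241 and 43648 in the wild type. That probe had log2 ratios of 0.33, -0.53 and 0.39. Its wild-type signal on replicate 2 lay in the range of the authors' saturated calls, which begins at 65061.65. The brighter Camk2a probe read lower in the mutant on every array, at -0.41, -0.52 and -0.39. The part of these markers in the Ntrk3 fall was not tested.

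Ngfr, the gene of the p75 receptor, read close to 0. Probe A_51_P384968 had signals of 561.1, 491.6 and 523.5 in Gtf2i(+/Δex2) cortex, against 560.4, 495.5 and 544.8 in WT cortex, and the groups overlapped. The log2 ratios were 0.0017, -0.01 and -0.06, and the mean of -0.02 ± 0.03 (SD, n = 3; limma adjusted p = 0.672) had a 95% interval of -0.12 to 0.07. Neurons of the cholinergic basal forebrain are a known source of Ngfr in the forebrain. Of 6 markers of those neurons on the array, Ngfr among them, 1 was called present in both genotypes on all arrays, and that marker was Ngfr itself.

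**Figure D3:**
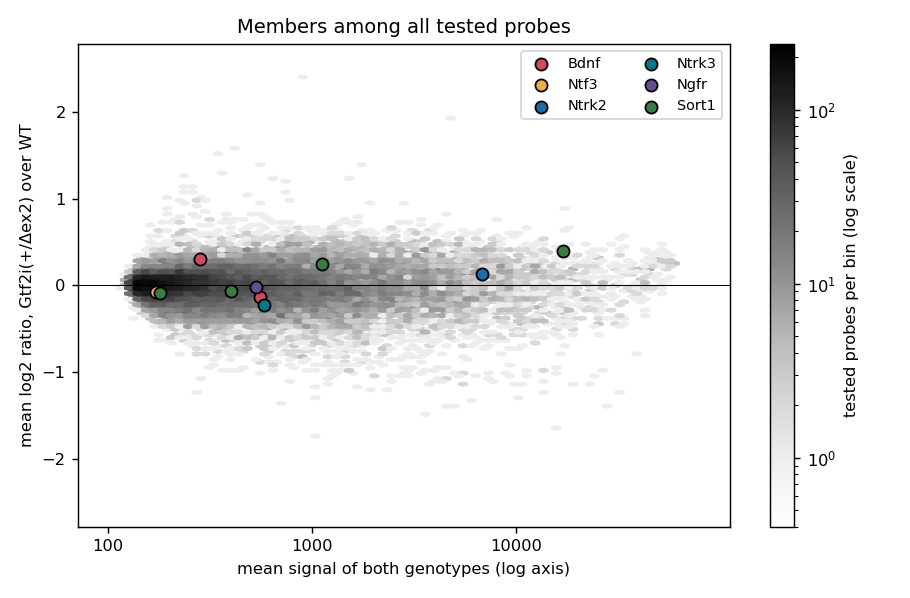
Mean log2 ratio of Gtf2i(+/Δex2) over WT (vertical axis) against mean signal of both genotypes (horizontal log axis); grey shading counts the 27530 tested probes and coloured points are the 10 member probes. The members lie within the cloud of tested probes, from -0.23 for Ntrk3 to 0.40 for Sort1 A_52_P590396.

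Sort1, which encodes sortilin, had probes that are grouped here, after seeing their mean log2 ratios, into a higher and a lower pair. Probe A_52_P590396 had signals of 17446, 22891 and 18208 in Gtf2i(+/Δex2) cortex, against 14616.5, 14528 and 15040.1 in WT cortex, with no overlap. It rose by 0.40 ± 0.23 on the log2 scale (SD, n = 3; limma adjusted p = 0.0229), and the mutant signal stood at 132% of the wild-type one. Replicate 2, the array with mutant RNA in Cy5, stood above the others at 0.66, against 0.26 and 0.28. In the brightest signal quartile, where the probe lay, 50.3% of probes were called. Without replicate 1 the rise read 0.47 and did not pass (limma adjusted p = 0.0557, in a range of 0.00205 to 0.0557 over 13 alternatives), and without replicate 2 it read 0.27.

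The other Sort1 probes did not pass. A_52_P568257 had signals of 1173, 1192 and 1295 in Gtf2i(+/Δex2) cortex, against 1035, 1163 and 900.9 in WT cortex, with no overlap. Its mean log2 ratio was 0.25 ± 0.25 (SD, n = 3; limma adjusted p = 0.102), and replicate 3 stood apart at 0.52, against 0.18 and 0.04. Thalamic markers also stood apart on replicate 3, where their 13 probes averaged 0.66 in log2 ratio, against -0.05 on each of the other arrays. Of 6 thalamic genes 1 rose and 0 fell. Their summed signals on replicates 1 to 3 were 11088, 12341 and 9707 in the mutant, against 10535, 11084 and 4811 in the wild type. Their part in the Sort1 values was not tested. Other marker lists also stood apart on that array: striatal probes averaged 0.16, against -0.21 and -0.37 on replicates 1 and 2, blood probes -0.04, against -0.40 and -0.45, and interneuron probes 0.07, against -0.21 and -0.09, and their part was not tested either.

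The lower pair of Sort1 probes overlapped between genotypes. A_51_P423456 had signals of 362.5, 393.9 and 416.1 in Gtf2i(+/Δex2) cortex, against 417.4, 420.5 and 389.7 in WT cortex, and its mean log2 ratio was -0.07 ± 0.15 (SD, n = 3; limma adjusted p = 0.449). A_51_P517145 had signals of 175.6, 162.3 and 186.9 in the mutant, against 185.8, 188.6 and 183.8 in the wild type, all in the marginal class, with a mean of -0.09 ± 0.12 (SD, n = 3; limma adjusted p = 0.255). In both probes replicate 3 alone read above 0.

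All 4 Sort1 probes carry the accession NM_019972. Of the 6 possible pairs, the 4 that set a higher probe against a lower one differed in log2 ratio, by 0.31 to 0.49 (limma adjusted p from 0.0151 to 0.0336), where 37.1% of all pairs were called. The 2 higher probes differed from each other by 0.15, with a 95% interval of -0.26 to 0.56 (limma adjusted p = 0.511). The 2 lower probes differed by 0.02, with an interval of -0.14 to 0.19 (limma adjusted p = 0.801). Pairs share probes and are not independent, and the higher and lower groups were formed from these same ratios. Wider gaps between the groups than within them therefore follow in part from the grouping. Without replicate 2 the widest gap, A_52_P590396 over A_51_P517145, read 0.29, against 0.49 with all arrays. Without replicate 1 or without replicate 2, 3 of the 6 pairs were called, and 2 were called with replicates 1 and 2 averaged as 1.

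**Figure D4:**
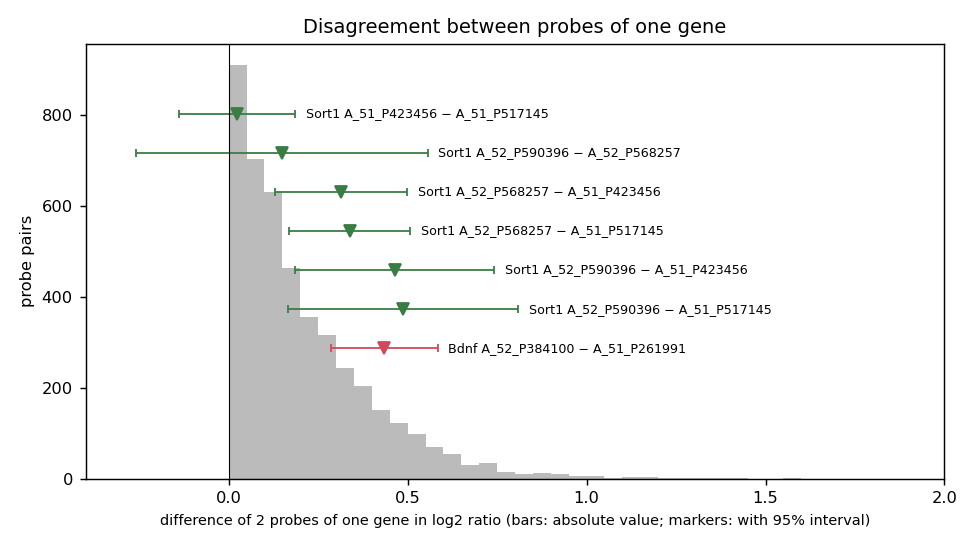
Difference in log2 ratio between probes of one gene: grey bars count the absolute differences of all 4459 pairs on the array, and markers with 95% intervals give the 7 pairs of Bdnf (red) and Sort1 (green), at heights chosen for legibility. The Bdnf pair at 0.43 and the 4 Sort1 pairs at 0.31 to 0.49 have intervals above 0.

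Genes that act with the members moved in both directions. Over 7 lists of pathway genes, 97 genes were measured, of which 33 fell and 18 rose in Gtf2i(+/Δex2) cortex by the probe with the smallest p. Thus 52.6% were called. Of all 12721 named genes, counted the same way, 40.7% were called, with 23.6% lower and 17.1% higher. The median log2 ratio of the 97 genes was -0.05, against -0.02 over all named genes, and the median absolute log2 ratio was 0.19, against 0.13. The difference of the lists from all named genes was not tested, and the 2 sets were not matched for signal. Leaving out replicate 1 gave 12 lower and 6 higher, in a fit that called 8.75% of all tested probes, against 33.9% with all arrays.

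Among other ligands, receptors and sorting receptors, 1 of 6 measured genes fell and 0 rose, with a median log2 ratio of 0.0021. Lingo1, a co-receptor of p75 in the Nogo receptor complex, fell by 0.35 on the log2 scale to 78.4% of wild type (limma adjusted p = 0.0117). Its partner Rtn4r, the Nogo receptor, read 0.23, the sortilin relative Sorcs3 had probes at 0.12 and -0.06, and Ntf5, the gene of neurotrophin 4, read -0.04, none past the threshold. The call of Lingo1 was lost without replicate 1 (limma adjusted p = 0.0531).

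Genes that process or release neurotrophin precursors were mixed: of 12 measured 5 fell and 2 rose, with a median of -0.08. Adam17, a sheddase that cleaves p75, fell at both probes, by 0.42 and 0.34, and the first read -0.72 with the negative control level subtracted. Both Adam17 probes were in the dimmest quartile, with mean signals of 169.4 and 171.5 in the mutant, against 226.2 and 217.5 in WT. The prohormone convertase gene Pcsk1 rose by 0.21, while Cpe, which encodes carboxypeptidase E, a sorting receptor for the BDNF precursor, fell at both probes, by 0.22 and 0.37. Plat, the tissue plasminogen activator, which activates plasmin to cleave precursors, had a probe at -0.18 that passed and another at 0.00071 that did not. Limma adjusted p of the 4 genes by their best probe ran from 0.00587 to 0.0272, and without replicate 1 the calls of Pcsk1, Cpe and Plat were lost (adjusted p = 0.0962, 0.100 and 0.188).

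Of 26 Trk adaptor and Ras-ERK genes 9 fell and 7 rose, with a median of -0.03. Mapk3, which encodes ERK1, fell at both of its probes, by 0.40 and 0.39. The Trk adaptor gene Frs3 rose by 0.53 ± 0.15 (SD, n = 3). Mapk7, which encodes ERK5, had a probe that rose by 0.40 and another at -0.10 that did not pass. The best probes of Mapk3, Frs3 and Mapk7 had limma adjusted p of 0.00323 to 0.00487 and stayed past the threshold in all 13 alternatives.

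Of 17 p75 partners and JNK genes 4 fell and 1 rose, with a median of -0.02. Bex3, which binds the p75 death domain, fell by 0.33, and the kinase gene Irak1 by 0.31 to 0.45 over its 3 probes. Psen2, a catalytic subunit of the gamma-secretase that cleaves p75, rose by 0.22. Without replicate 1 the calls of Bex3 (adjusted p = 0.0507) and Psen2 (adjusted p = 0.118) were lost in limma. Among 9 genes of the phospholipase C gamma and calcium arm 4 fell and 1 rose, with a median of -0.17. Camk4, a kinase that phosphorylates CREB, had a probe at -0.82 that fell and another at -0.02 that did not pass, while Camk2a fell at both probes, by 0.44 and 0.19, and Camk2b fell by 0.44. The Camk2a probe at -0.19 lay in the dimmest signal quartile, with mean signals of 154.2 in the mutant and 175.9 in WT. Itpr1, the IP3 receptor gene, had a probe that rose by 0.43 and another at -0.11 that did not pass.

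Of 11 measured genes reported to control Bdnf transcription 5 fell and 2 rose, with a median of -0.21. All named genes were also called lower (23.6%) more often than higher (17.1%), and the difference of the list from them was not tested. The E-box factor gene Tcf4 fell at probes of -0.64 and -0.58, with another at -0.07 that did not pass. Mef2c, an activity-regulated factor, fell by 0.64 ± 0.04, and Usf2, an E-box factor known to bind Bdnf promoters in rodents, by 0.51 ± 0.22, while Nfkb1 rose by 0.60 ± 0.04 (SD, n = 3). Their limma adjusted p ran from 0.00197 to 0.0105, and that of Usf2 without replicate 1 was 0.0548. Of 16 genes reported to respond to BDNF 5 fell and 5 rose, with a median of -0.11. The neuropeptide genes Sst and Npy fell by 0.57 and 0.24, the early response gene Egr1 fell by 0.44, and its relative Egr2 rose by 0.32. The calls of Egr2 (limma adjusted p = 0.0603) and Npy (0.0898) were lost when replicate 1 was left out.

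**Figure D5:**
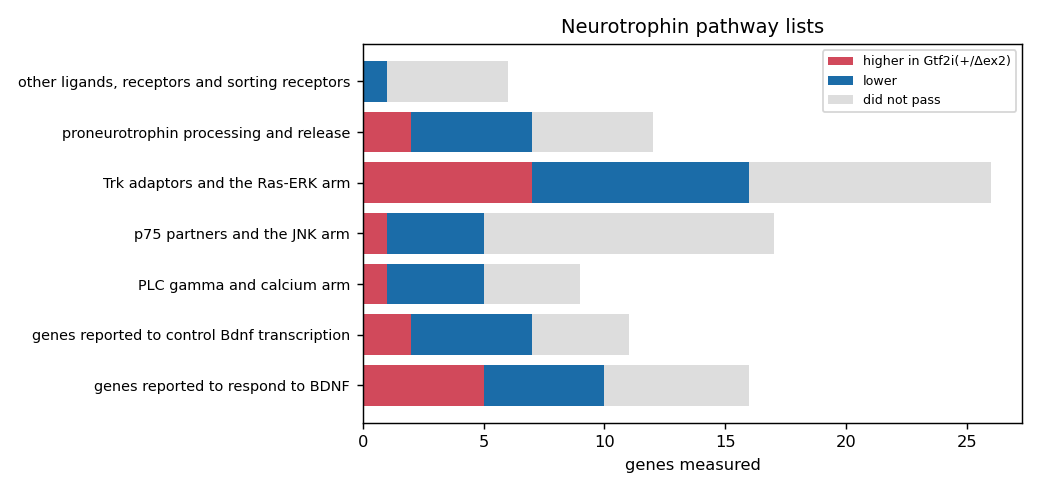
Number of genes measured in each of the 7 pathway lists (horizontal axis), split into those higher in Gtf2i(+/Δex2) cortex, those lower and those that did not pass, by the probe with the smallest p. The list of Trk adaptor and Ras-ERK genes holds 26 genes with 7 higher and 9 lower, and all 7 lists hold genes that did not pass.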

How the data were processed

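Per the labels' protocols, total RNA of cortex (500 ng, RNA integrity number of at least 7) was amplified, labelled and hybridised to Agilent 60-mer arrays. The authors deposited, per the readme, linear intensities already background-subtracted, normalized and corrected for the dye swap, with GenePix as image software; the normalization method is not stated. They also deposited a column headed as collapsed log2 ratio, and a score per spot, the signed fold, repeated in the series matrix with 0 spots differing (medians -1.01, -1 and 1 on replicates 1 to 3; 0 of its columns unused). Their flag of reliable means foreground above 2 times background, and the readme calls a signal present above 200 and absent below 150, whereas the deposited calls of present begin at a signal of 250 and those of marginal at 150. Control spots labelled Pro25G had median log2 ratios of 4.51, -4.54 and 4.58, changing sign with the labelled dye, so that the columns were read as genotypes, and the readme and titles gave which is which.

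Spots of a probe were averaged. Accessions were matched without versions to RefSeq genes of GRCm38.p6, which named 21445 probes (52.1%); a member's probe under another accession is unnamed here. The deposited intensities were not normalized again. Mean log2 ratios of probes reliable on at least 2 arrays were tested against 0 with limma 3.58.1 in R 4.3.3, with Benjamini-Hochberg adjustment over all tested probes at 0.05, and differences of probes sharing a gene likewise over all 4459 pairs. The code was tested on simulated data with changes larger than those of the members. A first simulation, with smaller changes and each probe's own variance, recovered none of them, and the simulated variances, the size of change and the pass limits were then revised until the test passed, so it does not bear on power for changes as small as the members'. Promoter sequences are from RefSeq. Python 3.11.15 with matplotlib 3.10.9 drew the figures.

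The members and lists were chosen with earlier results of these data known. Every member probe is given, and up to 4 genes with the smallest p in each list are named, except that some are not reported here. With 3 arrays no gene is named as most alike. Each array holds both genotypes, so the pairing lies in the ratio. Remarks on whether signals overlapped compare across arrays, leave out that pairing and entered no test. No share of all tested probes without overlap is given beside these remarks, so they do not set a member apart. Of the alternatives, the rule of B above 0 was chosen after seeing the data.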

Additional observations from a re-analysis of the deposited data

How the results depend on the processing

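Each array gives a ratio of both genotypes, so every fit was already paired and no separate paired fit was run. Without replicate 1 the ratios of Bdnf A_52_P384100 (0.30, limma adjusted p = 0.0535), Ntrk3 (-0.25, 0.0806) and Sort1 A_52_P590396 (0.47, 0.0557) no longer passed, Sort1 A_51_P423456 read 0.00012, and 0 member probes were called higher and 0 lower by limma (4 at an unadjusted p under 0.05), with 2409 probes called in all and 6 pathway genes higher and 12 lower. Over the fits that leave out 1 array, Bdnf A_52_P384100 stayed at 0.30, Ntrk3 from -0.25 to -0.21, Sort1 A_52_P590396 from 0.27 to 0.47 and Sort1 A_51_P423456 from -0.15 to 0.00012; Bdnf A_51_P261991 ranged from -0.17 to -0.07, Ntf3 from -0.18 to -0.02, Sort1 A_51_P517145 from -0.15 to -0.03 and A_52_P568257 from 0.11 to 0.35; members called ranged from 0 to 2 higher and 0 to 1 lower, all probes from 2409 to 9885, and pathway genes from 6 to 20 higher and 12 to 40 lower. With replicates 1 and 2 averaged as 1, 5120 probes, 11 pathway genes higher and 2 Sort1 pairs were called.

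Array weights (5.84, 0.373 and 0.459 for replicates 1 to 3) leaned on replicate 1. They gave 18617 probes, 4 member probes higher and 4 lower and 30 pathway genes higher; Bdnf A_51_P261991 (-0.10, adjusted p = 0.0209), Ntrk2 (0.21, 0.00113), Sort1 A_51_P423456 (-0.18, 0.00771), A_51_P517145 (-0.082, 0.0355) and A_52_P568257 (0.20, 0.00917) passed, and Ntf3 turned to 0.087 and Ntf5 to 0.00088. The authors' B above 0 called 1 member probe higher and 0 lower. The cause was not tested. Under loess, median centring, the deposited log2 ratio, both filters, subtraction of the negative controls, the dye as a term and trended robust eBayes, the 3 member calls and the Bdnf gap stayed past the threshold. With the negative control level subtracted, Adam17 read -0.72, Ntf3 -0.17 and Sort1 A_51_P517145 -0.18. Leaving out 1 array, the gap of Sort1 A_52_P590396 over A_52_P568257 ranged from -0.087 to 0.35, that of A_51_P423456 over A_51_P517145 from -0.026 to 0.096 (-0.095 with array weights), and Ntf5 from -0.080 to 0.027.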
